A study of Mus musculus with 4 samples.

Results

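Prostaglandin E2 is a lipid messenger that cells make from arachidonic acid, and 10 genes of its synthesis, breakdown and reception were read in 4 mouse oral cancer cell lines. The genes were Pla2g4a, Ptgs1, Ptgs2, Ptges, Ptges2, Ptges3, Hpgd, Ptger1, Ptger2 and Ptger4. They were picked by name out of 34721 entries with 34685 different gene identifiers, and the choice was made with their levels in these lines in view. Their levels and differences are therefore a description, and no test was applied to them.

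The lines came from C57BL/6 mice whose buccal mucosa had been painted with the carcinogen 7,12-dimethylbenzanthracene (DMBA). AOC3 was established from the primary oral tumor and AOC3-LN from the lymph node metastasis of mouse 3, and AOC11 and AOC11-LN came in the same way from mouse 11. The tumor cells of all 4 lines had been passaged under the skin of C57BL/6 mice, freed of fibroblasts and grown in DMEM/F12 with serum, and the labels name no treatment of the cultures. Polyadenylated RNA of cultured cells was sequenced with 1 library per line, so each value stands for 1 line from 1 mouse and has no replicate error. The ages of the mice were not used here.

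Prostaglandin synthesis starts when a phospholipase frees arachidonic acid from the membrane. A cyclooxygenase turns it into prostaglandin H2, and an E synthase turns that into prostaglandin E2, which leaves the cell and acts through G protein-coupled E receptors on the same or neighboring cells until it is taken up and oxidized. Ptgs2, also called COX-2, is the inducible cyclooxygenase, is often raised in squamous carcinomas, and is the target of many anti-inflammatory drugs, whereas Ptgs1 is the form that many tissues keep at a steady level.

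Levels are given in FPKM, the number of sequenced fragments scaled to the length of the transcript and to the size of the library, which allows genes to be compared within a line. Differences are given on the log2 scale, after addition of 1 to each FPKM value and quantile normalization, and a difference above 1 or below -1, which is a fold of 2 for well expressed genes, was counted as past the threshold. Of the 10 genes, 7 reached 1 FPKM in at least 1 line, and these were counted. The other 3, Hpgd, Ptger2 and Ptger4, stayed under that level in all lines. The same filter kept 14165 entries of the whole table, 11380 of them protein-coding.

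The libraries were estimated at between 28260000 and 33760000 fragments from the spacing of low FPKM values, the smallest being AOC3-LN. Between 9211 and 10813 entries were listed at 0 per line, and mitochondrial genes took 3.73% to 7.22% of the summed FPKM. The 8 epithelial markers summed to 2847 to 3544 FPKM, with Krt18 the highest, and 7 or 8 of the 8 reached 1 FPKM in each line. None of the 8 fibroblast, 5 mast cell, 4 endothelial and 4 T cell markers reached 1 FPKM in any line, and the fibroblast markers summed to 0.246 to 1.17 FPKM. Of the 6 macrophage markers, Adgre1 was listed at 0 in every line and Ptprc stayed at or under 0.064 FPKM, while Cd68, Cd14 and, in the AOC11 lines, Csf1r passed 1 FPKM. The macrophage list summed to 21.3 FPKM in AOC3 and 17.8 in AOC3-LN, against 33.8 in AOC11 and 16.8 in AOC11-LN. Csf1r, the receptor of a macrophage growth factor, was at 0.995, 0.435, 20.8 and 6.01 FPKM in the same order. Its log2 difference was -0.38 in mouse 3 and -1.66 in mouse 11, so in mouse 11 it was lower in the lymph node line together with Ptgs2 and Pla2g4a. Its part in the levels of the prostaglandin genes was not tested. In RNA from bulk cultures, fewer cells that express a gene and less RNA of it per cell cannot be told apart.

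The 2 genes with the widest swings were Ptgs2 and Ptges, and their upstream sequence is shown because both genes moved in opposite directions in the 2 mice and against each other. The 250 bases before the RefSeq start of Ptgs2 are chr1:150099781-150100030 on the plus strand, and those before the RefSeq start of Ptges are chr2:30903298-30903547 on the minus strand, both in build GRCm38.p6 and written 5′ to 3′. The RefSeq start of Ptges lies inside the longer span that GENCODE gives the gene. Capitals mark matches to the motifs that were searched.
Ptgs2: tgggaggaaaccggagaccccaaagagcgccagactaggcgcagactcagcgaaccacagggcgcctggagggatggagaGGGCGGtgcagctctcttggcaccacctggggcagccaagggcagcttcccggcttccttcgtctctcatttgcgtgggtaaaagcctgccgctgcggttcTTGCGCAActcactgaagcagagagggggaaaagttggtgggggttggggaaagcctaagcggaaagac
Ptges: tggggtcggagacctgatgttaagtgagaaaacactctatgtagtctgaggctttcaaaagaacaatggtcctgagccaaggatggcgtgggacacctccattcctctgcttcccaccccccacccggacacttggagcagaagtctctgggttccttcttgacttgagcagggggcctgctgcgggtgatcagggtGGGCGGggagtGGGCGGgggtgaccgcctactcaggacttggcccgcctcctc

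The motifs were searched on both strands in the 250 bases before the start. They were the TATA box (TATAAA), the E-box (CACGTG), the core of the cAMP response element, or CRE (TGACGT), the AP-1 site (TGANTCA), the C/EBP site (TTGCNNAA), the GC box (GGGCGG) and the NF-kappaB site (GGGANTTCC). The Ptgs2 window held a GC box at positions -170 to -165 from the start and the palindrome TTGCGCAA, a C/EBP match, at -69 to -62. The Ptges window held 2 GC boxes, at -53 to -48 and -42 to -37, and none of the other motifs. Among 32851 windows of that length, 32.7% held a GC box and 9.56% a C/EBP match, and the TATA box was in 12.4%, the E-box in 6.02%, the CRE core in 6.47%, the AP-1 site in 6.75% and the NF-kappaB site in 1.43%. The exact letters of the TATA box, E-box, CRE core, AP-1 site and NF-kappaB site were thus in neither window. The windows end at the start, so bases past the start of each gene are not part of them. A RefSeq window was at hand for 9 of the 10 genes. The window of Ptgs1, the other cyclooxygenase, held no match to any of the 7 motifs, and that of Ptges3, the E synthase expressed at the highest level, held 3 GC boxes. GC content was 61.6% for Ptgs2, 59.6% for Ptges, 48% for Ptgs1 and 73.2% for Ptges3.

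Pla2g4a encodes cytosolic phospholipase A2 alpha, which frees arachidonic acid from membrane phospholipids. The gene (ENSMUSG00000056220.14) lies at chr1:149829618-149961290 on the minus strand of mm10. Its level was 6.75 FPKM in AOC3 and 10.8 in AOC3-LN, against 18.7 in AOC11 and 7.10 in AOC11-LN. AOC11 was the highest line, and AOC3 and AOC11-LN were the lowest and close to each other. The log2 difference of the lymph node line from the primary line was 0.71 in mouse 3 and -1.28 in mouse 11. Only the second was past the threshold, and the order of high and low lines was the same as that of Ptgs2 except that AOC11 stood above AOC3-LN.

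Ptgs1 and Ptgs2 encode the 2 cyclooxygenases, the enzymes that make prostaglandin H2 and the committed step of the pathway. Ptgs1 (ENSMUSG00000047250.13, chr2:36230426-36252272, plus strand) was at 29.4 FPKM in AOC3 and 3.92 in AOC3-LN, against 4.00 in AOC11 and 4.28 in AOC11-LN. AOC3 alone was high, 7.50 times AOC3-LN, and the other 3 lines lay within a narrow range. The log2 difference of AOC3-LN from AOC3 was -2.54, and that of AOC11-LN from AOC11 was -0.05, or 0.08 without quantile normalization, so its sign depended on the scaling.

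Ptgs2 (ENSMUSG00000032487.8, chr1:150100031-150108227, plus strand) was at 4.91 FPKM in AOC3 and 53.2 in AOC3-LN, against 52.0 in AOC11 and 4.95 in AOC11-LN. The 2 high lines were a lymph node line of one mouse and a primary line of the other, and they differed by little, as did the 2 low lines. In mouse 3 the lymph node line was 10.8 times the primary line, and in mouse 11 the primary line was 10.5 times the lymph node line. The log2 differences were 3.23 and -3.22. If all fragments came from the longest transcript, of 4453 bases, the estimated number of Ptgs2 fragments was 709 in AOC3 (95% Poisson interval 658 to 763) and 6462 in AOC3-LN (6305 to 6622), against 7500 in AOC11 (7331 to 7672) and 690 in AOC11-LN (639 to 743). These intervals cover counting error only. Scaled to library size they were 4.55 to 5.28 and 4.59 to 5.34 FPKM in the low lines, AOC3 and AOC11-LN, and 51.9 to 54.5 and 50.9 to 53.2 FPKM in the high lines. Ptgs2 stood at percentiles 33.2 and 32.0 of the kept entries in the low lines and at 85.6 and 84.8 in the high lines.

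The levels of both cyclooxygenases together were 34.3 FPKM in AOC3 and 57.1 in AOC3-LN, against 56.0 in AOC11 and 9.23 in AOC11-LN. Ptgs2 made up 14.3% of that sum in AOC3 and 93.1% in AOC3-LN, against 92.9% in AOC11 and 53.6% in AOC11-LN. AOC3 was thus a line in which most cyclooxygenase RNA was Ptgs1, AOC3-LN and AOC11 were lines in which nearly all of it was Ptgs2, and AOC11-LN had little of either.

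**Figure D1:**
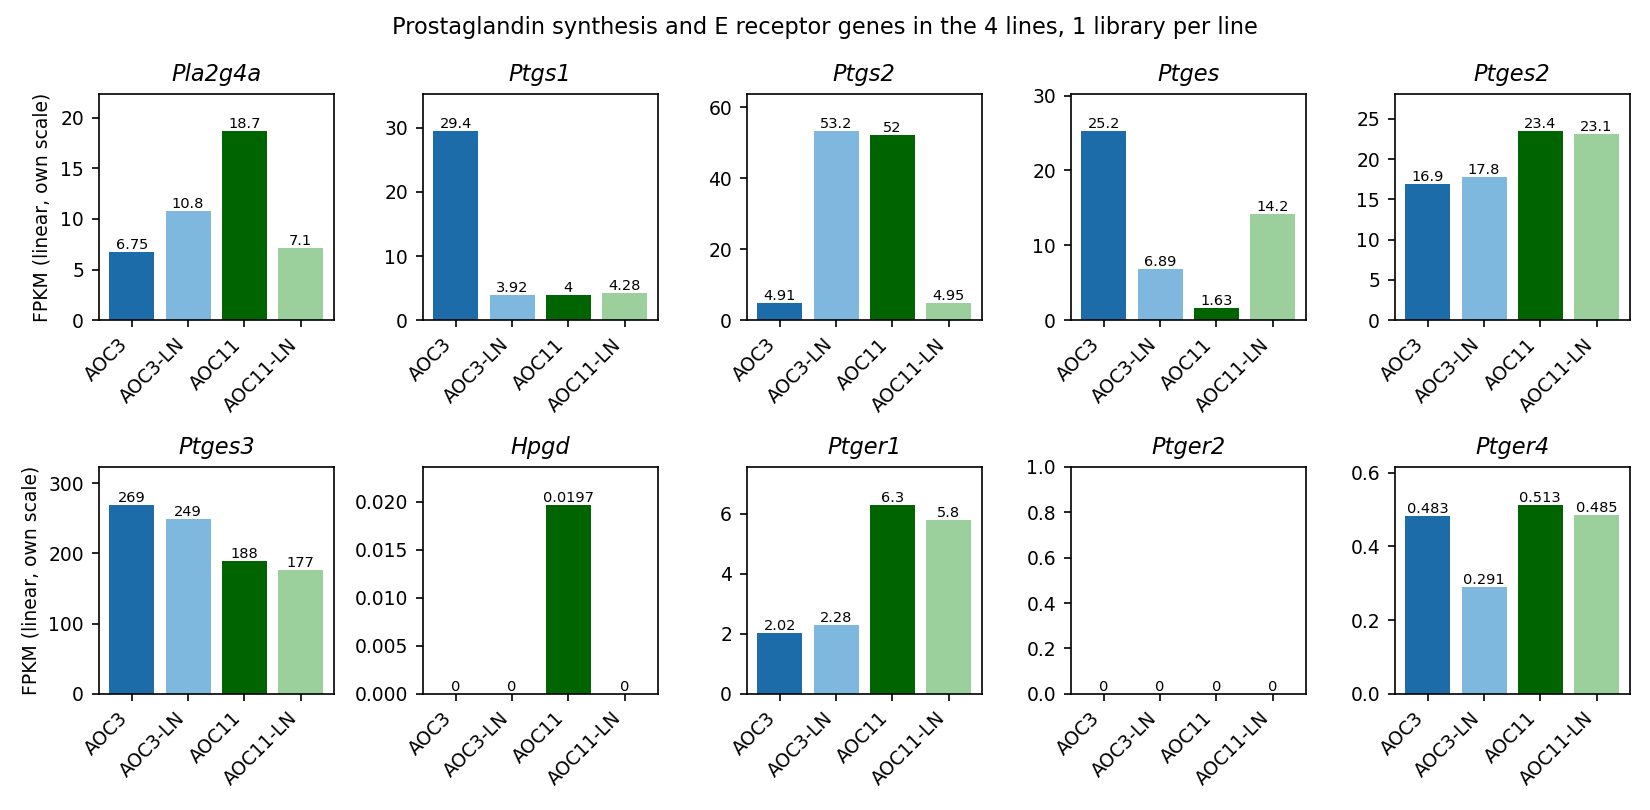
FPKM of the 10 prostaglandin synthesis and E receptor genes in AOC3, AOC3-LN, AOC11 and AOC11-LN, on a linear axis that has its own scale in each panel, with 1 bar per line and 1 library behind each bar. Ptgs2 was near 50 FPKM in AOC3-LN and AOC11 (53.2 and 52.0) and near 5 in the other lines (4.91 and 4.95), Ptgs1 was high in AOC3 alone, and Ptger2 was listed at 0 in all 4 lines.

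Ptges, Ptges2 and Ptges3 encode the E synthases, which make prostaglandin E2 out of prostaglandin H2. Ptges is the microsomal, inducible enzyme, which is often induced together with Ptgs2. Ptges (ENSMUSG00000050737.13, chr2:30889471-30929863, minus strand) was at 25.2 FPKM in AOC3 and 6.89 in AOC3-LN, against 1.63 in AOC11 and 14.2 in AOC11-LN. The lines lowest in Ptgs2, AOC3 and AOC11-LN, were the highest in Ptges, and the reverse held for the other pair. In mouse 3 the primary line was 3.66 times the lymph node line, with a log2 difference of AOC3-LN from AOC3 of -1.68. In mouse 11 the lymph node line was 8.70 times the primary line, with a log2 difference of 2.39. The estimated number of Ptges fragments on the longest transcript was 2958 in AOC3 (95% Poisson interval 2852 to 3067) and 680 in AOC3-LN (630 to 733), against 190 in AOC11 (164 to 219) and 1603 in AOC11-LN (1525 to 1683).

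The ratio of Ptges to Ptgs2 levels was 5.14 in AOC3 and 0.130 in AOC3-LN, against 0.0313 in AOC11 and 2.86 in AOC11-LN. Ptges exceeded Ptgs2 in AOC3 and AOC11-LN, whereas Ptgs2 was 7.72 times Ptges in AOC3-LN and 32.0 times Ptges in AOC11. No line had both genes at a high level.

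**Figure D2:**
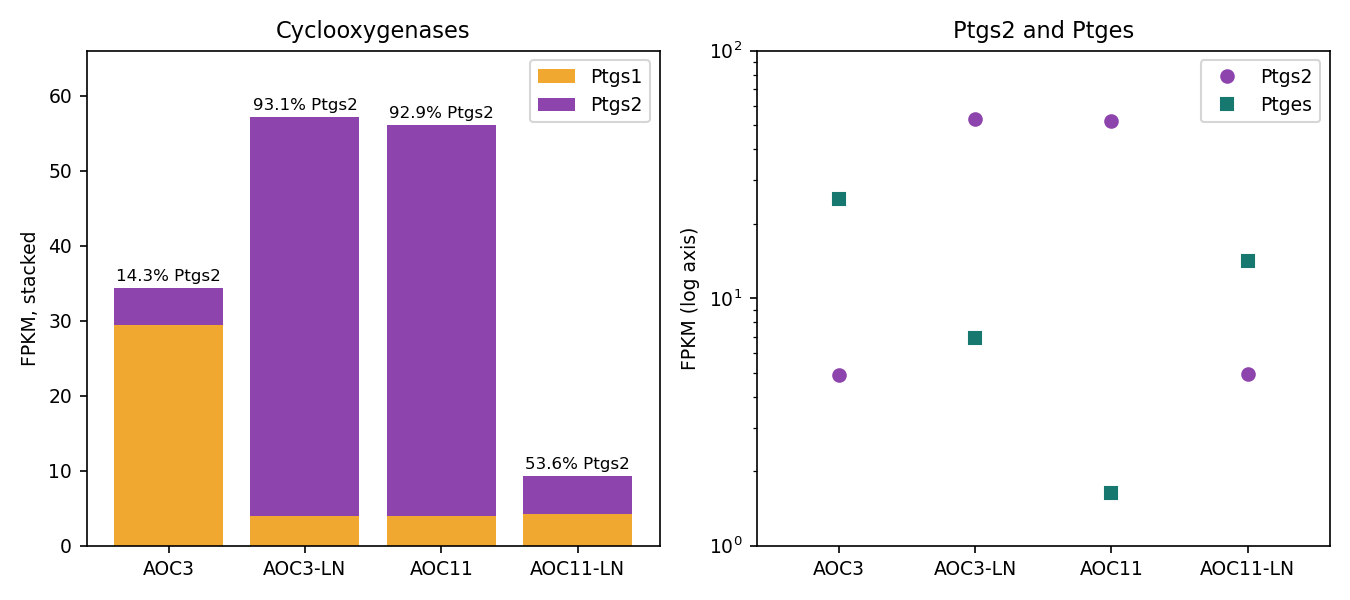
The left panel stacks the FPKM of Ptgs1 and Ptgs2 in each line with the share of Ptgs2 above each bar, and the right panel plots the FPKM of Ptgs2 (circles) and Ptges (squares) in the same lines on a log axis. The share of Ptgs2 ran from 14.3% in AOC3 to 93.1% in AOC3-LN, and Ptges lay above Ptgs2 in AOC3 and AOC11-LN and below it in AOC3-LN and AOC11.

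The other E synthases varied little. Ptges2 (ENSMUSG00000026820.5, chr2:32395896-32405772, plus strand), which encodes a membrane-associated E synthase, was at 16.9 FPKM in AOC3 and 17.8 in AOC3-LN, against 23.4 in AOC11 and 23.1 in AOC11-LN, and its highest value was 1.38 times its lowest. Ptges3 (ENSMUSG00000071072.12, chr10:128058954-128077272, plus strand), which encodes the cytosolic E synthase better known as the HSP90 co-chaperone p23, was at 269 FPKM in AOC3 and 249 in AOC3-LN, against 188 in AOC11 and 177 in AOC11-LN. It was the most highly expressed of the 10 genes in every line, at percentiles 95.9 to 97.5 of the kept entries, and somewhat higher in both lines of mouse 3. Neither gene passed the threshold in any comparison, with log2 differences of the lymph node line of 0.12 and -0.00 for Ptges2 and of -0.10 and -0.12 for Ptges3.

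Hpgd encodes 15-hydroxyprostaglandin dehydrogenase, the enzyme that starts the breakdown of prostaglandin E2. The gene (ENSMUSG00000031613.9, chr8:56294585-56321043, plus strand) was listed at 0 FPKM in AOC3, AOC3-LN and AOC11-LN and at 0.0197 in AOC11. With 1 transcript of 1683 bases, the value in AOC11 was worth about 1 fragment (95% Poisson interval 0.0253 to 5.57). Hpgd RNA was close to or under what these libraries could detect, 3 fragments being worth 0.0587 to 0.0695 FPKM.

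Ptger1, Ptger2 and Ptger4 encode the E receptors EP1, EP2 and EP4. EP1 acts mainly through calcium, and EP2 and EP4 couple to the stimulatory G protein and raise cAMP. Ptger2 (ENSMUSG00000037759.6, chr14:44988195-45003820, plus strand) was listed at 0 in all 4 lines, where 3 fragments would be worth at most 0.0301 FPKM on its longest transcript. Ptger4 (ENSMUSG00000039942.15, chr15:5206661-5244187, minus strand) was at 0.483 FPKM in AOC3 and 0.291 in AOC3-LN, against 0.513 in AOC11 and 0.485 in AOC11-LN. It was low in every line, and AOC3-LN was the lowest. If all fragments came from the longest transcript, they numbered about 59, 30, 62 and 57 in that order. Of its exonic bases, 82 are shared with Ttc33 on the opposite strand, which was at 8.45 to 15.8 FPKM. Whether strand was used in the estimation was not given, so RNA of Ttc33 may be part of these low values. On the FPKM scale the 95% Poisson interval of AOC3-LN, 0.198 to 0.419, partly overlapped that of AOC3, 0.370 to 0.627. Such an overlap does not decide whether the levels differ, and the difference was not tested.

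Ptger1 (ENSMUSG00000019464.6, chr8:83666678-83672753, plus strand) was at 2.02 FPKM in AOC3 and 2.28 in AOC3-LN, against 6.30 in AOC11 and 5.80 in AOC11-LN. Both lines of mouse 11 were higher than both lines of mouse 3, by 2.82 times on the mean of the lines, and the lymph node and primary lines of a mouse were close. The library kit keeps strand, but whether strand was used in the estimation was not given in the sources used here, so RNA from the opposite strand may be part of this value and the level of Ptger1 is uncertain.

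In AOC3-LN against AOC3, 3 of the 7 counted genes were past the threshold. Ptgs2 was higher and Ptgs1 and Ptges were lower. Over all kept entries 5.53% were past it, 2.11% higher and 3.42% lower. In AOC11-LN against AOC11, 3 of the 7 were past the threshold, with Ptges higher and Ptgs2 and Pla2g4a lower, beside 8.11% of all kept entries, 4.97% higher and 3.14% lower. The 10 genes were chosen with these differences known, so nothing can be read from their excess over the whole table. Ptgs1 and Pla2g4a each passed the threshold in 1 mouse, and whether their differences were unlike between the mice could not be tested with 1 library per line.

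Differences past the threshold in both mice, in like or opposite directions, were uncommon in the whole table, at 230 entries (1.62%). Of the 14165 kept entries, 43 (0.304%) were higher in AOC3-LN and lower in AOC11-LN, as Ptgs2 was, and 96 (0.678%) were lower in AOC3-LN and higher in AOC11-LN, as Ptges was. Of the protein-coding entries, 19 had the direction of Ptgs2 and 69 that of Ptges. Of all kept entries, a further 36 were higher and 55 lower in the lymph node lines of both mice. Among entries past the threshold in both mice, opposite directions were thus more frequent than like directions. Apart from Ptgs2 itself, 5 entries differed at least as far as Ptgs2 in both mice, and 16 differed at least as far as Ptges. All of them were miRNA or snoRNA entries with transcripts of at most 132 bases, and none was protein-coding. The number of fragments behind these short entries was not estimated. Gm23935, Gm24245 and Gm24270 had identical values in every line, so the entries are not all separate measurements. They are also part of the 96 and the 230 entries. These counts were made after the values of Ptgs2 and Ptges had been seen.

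**Figure D3:**
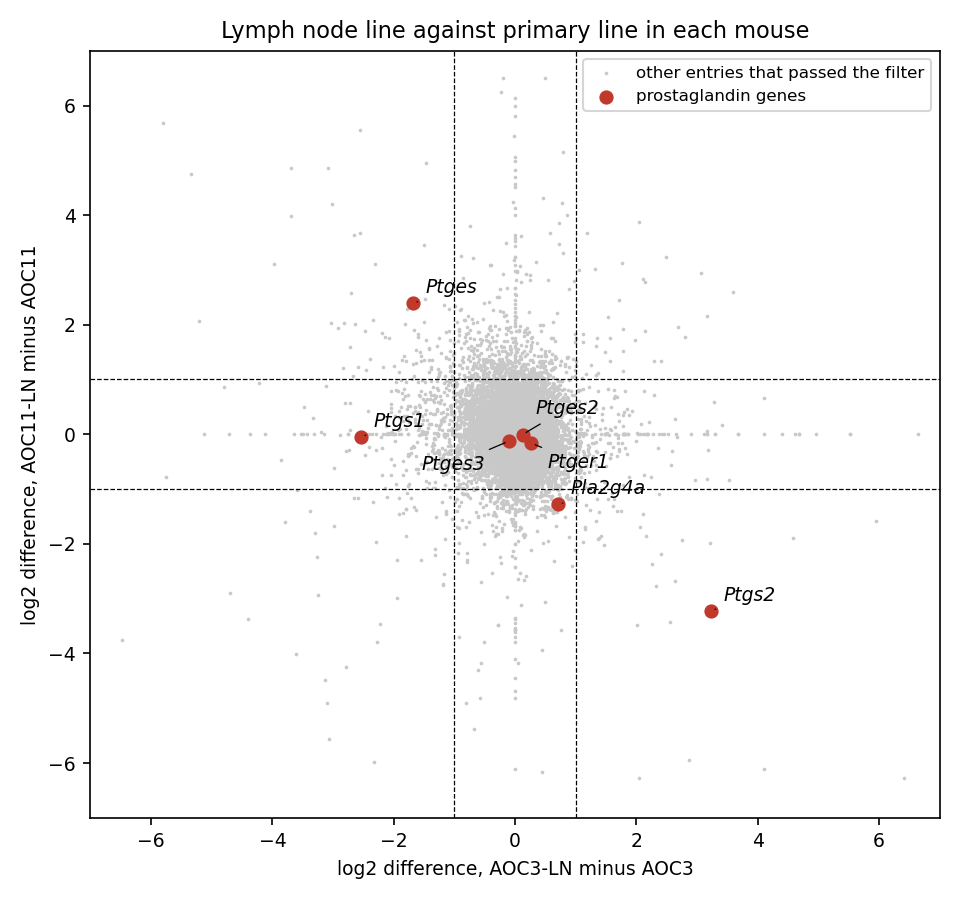
Each point is 1 entry that reached 1 FPKM in at least 1 line, with the log2 difference of AOC3-LN from AOC3 on the horizontal axis and that of AOC11-LN from AOC11 on the vertical axis, dashed lines at -1 and 1, and the 7 counted prostaglandin genes in red. Ptgs2 lies at the lower right (3.23 and -3.22) and Ptges at the upper left (-1.68 and 2.39), and 40 entries with a difference beyond 7 in either direction are outside the axes.

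Between the mice, the mean of both AOC3 lines was set against the mean of both AOC11 lines, so this comparison uses the same 4 libraries as those within each mouse. Of the 7 genes, 3 were past the threshold. Ptgs1 (1.37) and Ptges (1.21) were higher in the AOC3 lines and Ptger1 (-1.09) was lower, beside 11.1% of all kept entries, 5.1% higher and 6% lower. The difference of Ptgs1 came from AOC3, since it was 2.61 between the primary lines and 0.12 between the lymph node lines. That of Ptges was 3.24 between the primary lines and -0.82 between the lymph node lines, so its direction depended on which pair of lines was compared. With 1 line per site in each mouse, an effect of the site cannot be told apart from a difference between lines. Ptgs2 averaged to 0.08, from -3.15 between the primary lines and 3.31 between the lymph node lines. Ptger1 kept its direction, with -1.30 between the primary lines and -0.87 between the lymph node lines, the latter short of the threshold. Ptges3 was also higher at both sites, by 0.51 and 0.53, without passing it.

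Around the Ptgs2 start, 18 entries lay within 1000 kb on either side, and 7 of them were kept. They are described because of the values of Ptgs2, and so were chosen after those were seen. Ptgs2os, an RNA transcribed from the opposite strand whose start lies 68 bases from that of Ptgs2, was at 0.118 FPKM in AOC3 and 0.971 in AOC3-LN, against 0.918 in AOC11 and 0.365 in AOC11-LN. It was high and low in the same lines as Ptgs2, 8.26 times higher in AOC3-LN than in AOC3 and 2.51 times higher in AOC11 than in AOC11-LN, on an estimated 11, 76, 85 and 33 fragments. It stayed under 1 FPKM and so was not counted. Its own window of 250 bases, chr1:150099875-150100124 on the minus strand, overlaps the Ptgs2 window. It is counted from a RefSeq start that lies inside the GENCODE span of Ptgs2os and farther from Ptgs2. The distance of 68 bases is that of the GENCODE start. From the RefSeq start, the same TTGCGCAA, in the shared part, stood at -95 to -88. The GENCODE start itself falls within this TTGCGCAA. The Ptgs2os window also held an E-box at -178 to -173 and an overlapping CRE core at -174 to -169. Both of these lie outside the Ptgs2 window, a short way past the Ptgs2 start and within the Ptgs2 gene.

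Pla2g4a is the nearest kept protein-coding gene, with its start 138741 bases from that of Ptgs2. The next kept protein-coding genes on the other side did not move as Ptgs2 did. Tpr, a nuclear pore gene, was at 52.7 FPKM in AOC3 and 50.3 in AOC3-LN, against 61.0 in AOC11 and 60.6 in AOC11-LN. Odr4 was at 11.6, 10.01, 16.1 and 12.0 FPKM in the same order, with log2 differences of the lymph node line of -0.11 and -0.39.

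**Figure D4:**
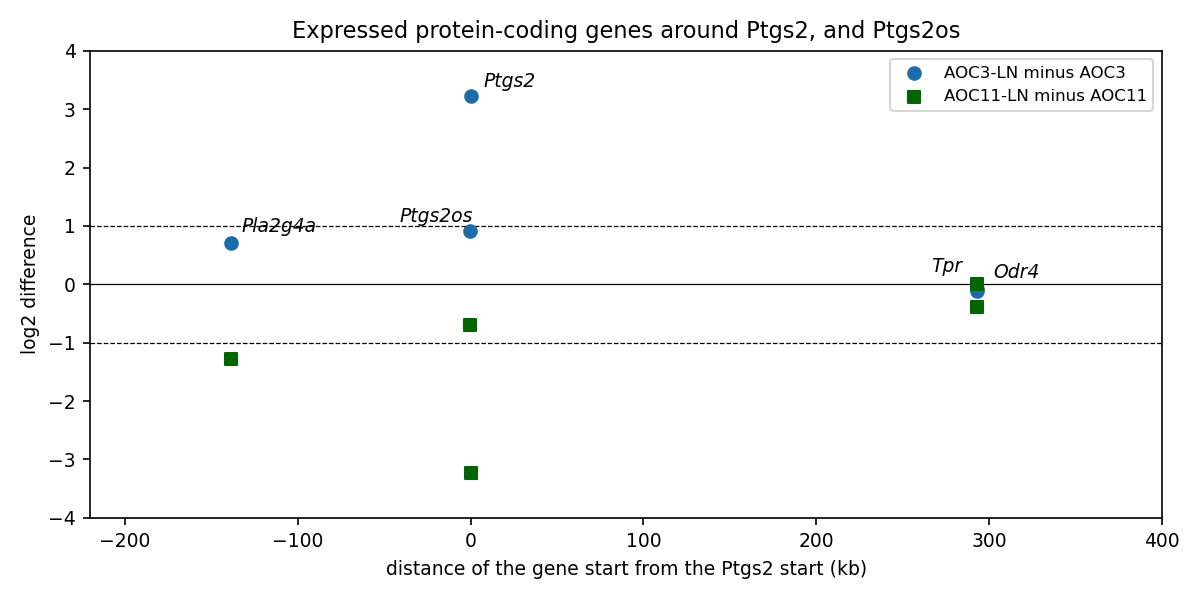
Log2 difference of AOC3-LN from AOC3 (circles) and of AOC11-LN from AOC11 (squares) for Ptgs2os and the kept protein-coding genes near Ptgs2, against the distance of each gene start from the Ptgs2 start in kb, with dashed lines at -1 and 1. Ptgs2 (3.23 and -3.22), Ptgs2os (0.92 and -0.70) and Pla2g4a (0.71 and -1.28) were higher in AOC3-LN and lower in AOC11-LN, whereas Tpr (-0.08 and 0.00) and Odr4 (-0.11 and -0.39), whose points nearly coincide, were close to 0 in mouse 3.

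The protein-coding genes whose profile over the 4 lines was most like that of Ptgs2 were Prl2c2, Ppbp, Prl2c3 and Spire1. Likeness was the root mean square distance of log2 profiles centered on their own mean, over 4 lines, and it was 0.49, 0.54, 0.89 and 0.91 in that order. Ppbp, a CXC chemokine gene also known as Cxcl7, was at 26.4 FPKM in AOC3 and 256 in AOC3-LN, against 103 in AOC11 and 25.7 in AOC11-LN. Spire1, an actin nucleator gene, was at 4.01, 11.1, 11.8 and 4.04 FPKM in the same order. Prl2c2 and Prl2c3 belong to the proliferin family of near-identical genes, so their separate levels are uncertain, and Prl2c2 was at 0.857, 7.22, 9.88 and 1.35 FPKM.

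Other genes of the pathway were read from lists written for this description, and all are given by the same threshold. Over all kept entries the median log2 difference was 0.02 in mouse 3, -0.02 in mouse 11 and 0.01 between the mice. The lists share the libraries with the 10 genes and were not tested.

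The other prostanoid synthases make prostaglandins D and F, prostacyclin and thromboxane out of the same precursor, and 6 of the 10 in the table were kept. In AOC3-LN against AOC3 none of the 6 was past the threshold and their median was -0.31. In AOC11-LN against AOC11, 3 were higher and none lower, with a median of 0.97, and 4 were lower in the AOC3 lines than in the AOC11 lines, with a median of -1.05. Ptgds, the lipocalin-type prostaglandin D synthase, was at 0.335 FPKM in AOC3 and 0.144 in AOC3-LN, against 0.645 in AOC11 and 3.13 in AOC11-LN. Gstm2, a glutathione transferase, went from 0.659 and 0.117 FPKM in the AOC3 lines to 4.28 in AOC11 and 12.3 in AOC11-LN. Fam213b, a prostamide and prostaglandin F synthase, was at 0.186, 0.0963, 0.537 and 3.49 FPKM in the order AOC3, AOC3-LN, AOC11 and AOC11-LN, and the carbonyl reductase gene Cbr2 was at 4.41, 2.01, 5.33 and 10.9. AOC11-LN was thus the highest line for these 4 genes. Between the primary lines alone Ptgds, Fam213b and Cbr2 were short of the threshold, at -0.45, -0.50 and -0.22, and Gstm2 was at -1.72. Akr1b3, an aldose reductase with prostaglandin F synthase activity, was the most highly expressed gene of the list at 205 to 299 FPKM.

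Among 8 other prostanoid receptors only Ppard was kept. It encodes a nuclear receptor of fatty acids for which prostacyclin has been proposed as a ligand, and it was at 34.7 FPKM in AOC3 and 73.5 in AOC3-LN, against 22.0 in AOC11 and 22.0 in AOC11-LN, with a log2 difference of 1.05 in mouse 3, 0.01 in mouse 11 and 1.21 between the mice, of which the primary lines alone gave 0.69. Ptger3, the E receptor outside the 10 genes, was listed at 0 in all lines. It is named because of that value.

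All 7 genes of prostaglandin transport and further breakdown in the table were kept. In mouse 3, 1 was lower, in mouse 11, 1 was higher and 1 lower, and 3 were higher in the AOC3 lines than in the AOC11 lines, with medians of -0.12, -0.03 and 0.88. Slco2a1, the transporter that takes prostaglandins up into cells, was at 68.9 FPKM in AOC3 and 65.3 in AOC3-LN, against 31.3 in AOC11 and 37.4 in AOC11-LN. Abcc4, which exports prostaglandin E2, was at 15.2, 20.9, 6.14 and 1.82 FPKM in the same order, with a difference of -1.51 in mouse 11 and 2.19 between the mice. Ptgr1, a prostaglandin reductase, was lowest in AOC11 at 0.308 FPKM and at 2.61 to 4.38 in the other lines. Between the lymph node lines alone Slco2a1 (0.82) and Ptgr1 (0.14) did not pass the threshold. Slco3a1, another organic anion transporter, was at 2.29 FPKM in AOC3 and at most 0.120 elsewhere.

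Of 33 other genes of phospholipases and of arachidonate release and uptake, 20 were kept. None was past the threshold in mouse 3, 3 were higher in AOC11-LN, and 1 was lower in the AOC3 lines than in the AOC11 lines, with medians of -0.04, 0.24 and 0.03. Fads1 and Fads2, neighboring genes for the desaturases that make arachidonic acid, were both higher in AOC11-LN. Fads1 was at 16.3 FPKM in AOC3 and 14.0 in AOC3-LN, against 4.77 in AOC11 and 36.3 in AOC11-LN, and Fads2 at 79.4, 77.4, 37.6 and 107 in the same order. The third gene was Pla2g16, a phospholipase and acyltransferase gene, at 0.676, 0.358, 4.72 and 12.9 FPKM. Anxa1, long described as an inhibitor of phospholipase A2, was the most highly expressed of the list at 1079 to 1665 FPKM.

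Of 17 lipoxygenase and leukotriene genes, 5 were kept. In mouse 3, 1 was higher and 1 lower, in mouse 11, 1 was higher, and none passed the threshold between the mice, with medians of -0.02, 0.20 and 0.16. Ephx1, the microsomal epoxide hydrolase, was at 6.22 FPKM in AOC3 and 0.881 in AOC3-LN, against 3.24 in AOC11 and 11.1 in AOC11-LN, and so was lower in one lymph node line (-1.83) and higher in the other (1.44), as Ptges was. Aloxe3, an epidermal lipoxygenase, was at 0.0995, 1.09, 0.497 and 0.277 FPKM. Lta4h, the leukotriene A4 hydrolase, was the most highly expressed at 48.5 to 72.7 FPKM.

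The genes of cAMP signaling and the genes that cAMP is known to induce lie downstream of EP2 and EP4, and 26 of 28 were kept. In mouse 3, 3 were higher and 1 lower, in mouse 11, 2 were lower, and 7 were higher in the AOC3 lines than in the AOC11 lines, with medians of 0.02, -0.29 and 0.09. Gnas, which encodes the stimulatory G protein alpha subunit, was the most highly expressed at 305 to 388 FPKM and past no threshold. Dusp1, a phosphatase of MAP kinases, was at 8.13 FPKM in AOC3 and 35.8 in AOC3-LN, against 6.75 in AOC11 and 1.70 in AOC11-LN, with log2 differences of 2.06 and -1.69 in the directions of Ptgs2. Areg, the EGF receptor ligand amphiregulin, was at 44.6, 93.4, 32.1 and 19.2 FPKM in the same order, with 1.05 in mouse 3 and -0.71 in mouse 11. Both were also past the threshold between the mice on the means of the lines, by 2.10 for Dusp1 and 1.40 for Areg. This came from the lymph node lines, where the differences were 3.98 and 2.28, against 0.23 and 0.52 between the primary lines.

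Most of the other cAMP genes past the threshold were higher in the AOC3 lines. Pde4a and Pde3b, phosphodiesterases that break cAMP down, were at 4.54 and 2.47 FPKM in AOC3 and 2.83 and 5.44 in AOC3-LN. In AOC11 they were at 0.0661 and 0, and in AOC11-LN at 0.774 and 0.663. The transcription factor genes Nr4a2 (1.18), Atf3 (1.08) and Fos (1.01) were also past the threshold on the means of the lines. Between the primary lines alone they were short of it, at 0.98, 0.69 and 0.46. The adenylate cyclase gene Adcy3 was lowest in AOC3-LN at 0.806 FPKM, against 3.39 to 3.92 in the other lines, and Prkar2a, a regulatory subunit of protein kinase A, was lowest in AOC11-LN at 9.72 FPKM, against 25.1 to 30.3.

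The genes that induce Ptgs2 or control its mRNA were kept for 28 of 29. None was higher in either lymph node line, 2 were lower in mouse 3 and 3 in mouse 11, and between the mice 4 were higher and 3 lower in the AOC3 lines, with medians of -0.11, -0.06 and 0.11. Il1a, the cytokine interleukin 1 alpha, was at 173 FPKM in AOC3 and 136 in AOC3-LN, against 69.1 in AOC11 and 11.3 in AOC11-LN. It was highest in AOC3 and lowest in AOC11-LN, with log2 differences of -0.38 in mouse 3 and -2.53 in mouse 11. Its part in the levels of Ptgs2 was not tested. Egfr was at 15.5, 11.3, 16.6 and 5.64 FPKM in the same order, and it too was lowest in AOC11-LN (-1.43). Tnf was lower in both lymph node lines (-1.20 and -1.23), at 2.23 FPKM in AOC3 and 0.324 in AOC3-LN, against 1.97 in AOC11 and 0.437 in AOC11-LN.

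The list genes that were past the threshold between the mice and lower in the AOC3 lines were 3 members of the NF-kappaB family. Nfkb1 was at 35.8 and 19.2 FPKM in the AOC3 lines and 87.8 and 56.4 in the AOC11 lines, Nfkb2 at 29.8 and 27.0 against 62.6 and 62.5, and Relb at 7.27 and 5.32 against 22.1 and 21.7, each with the primary line first. Nfkbia, which encodes an NF-kappaB inhibitor, was lowest in AOC3-LN at 34.5 FPKM, against 65.5 to 96.9 elsewhere. Zfp36l1 and Zfp36l2, whose proteins bind AU-rich mRNAs and hasten their decay, were higher in the AOC3 lines by 1.10 and 1.32, as was the interleukin 1 receptor subunit Il1rap by 1.32. By site, Nfkb2 (-0.98) and Il1rap (0.93) were short of the threshold between the primary lines, and Zfp36l1 (0.46) between the lymph node lines.

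**Figure D5:**
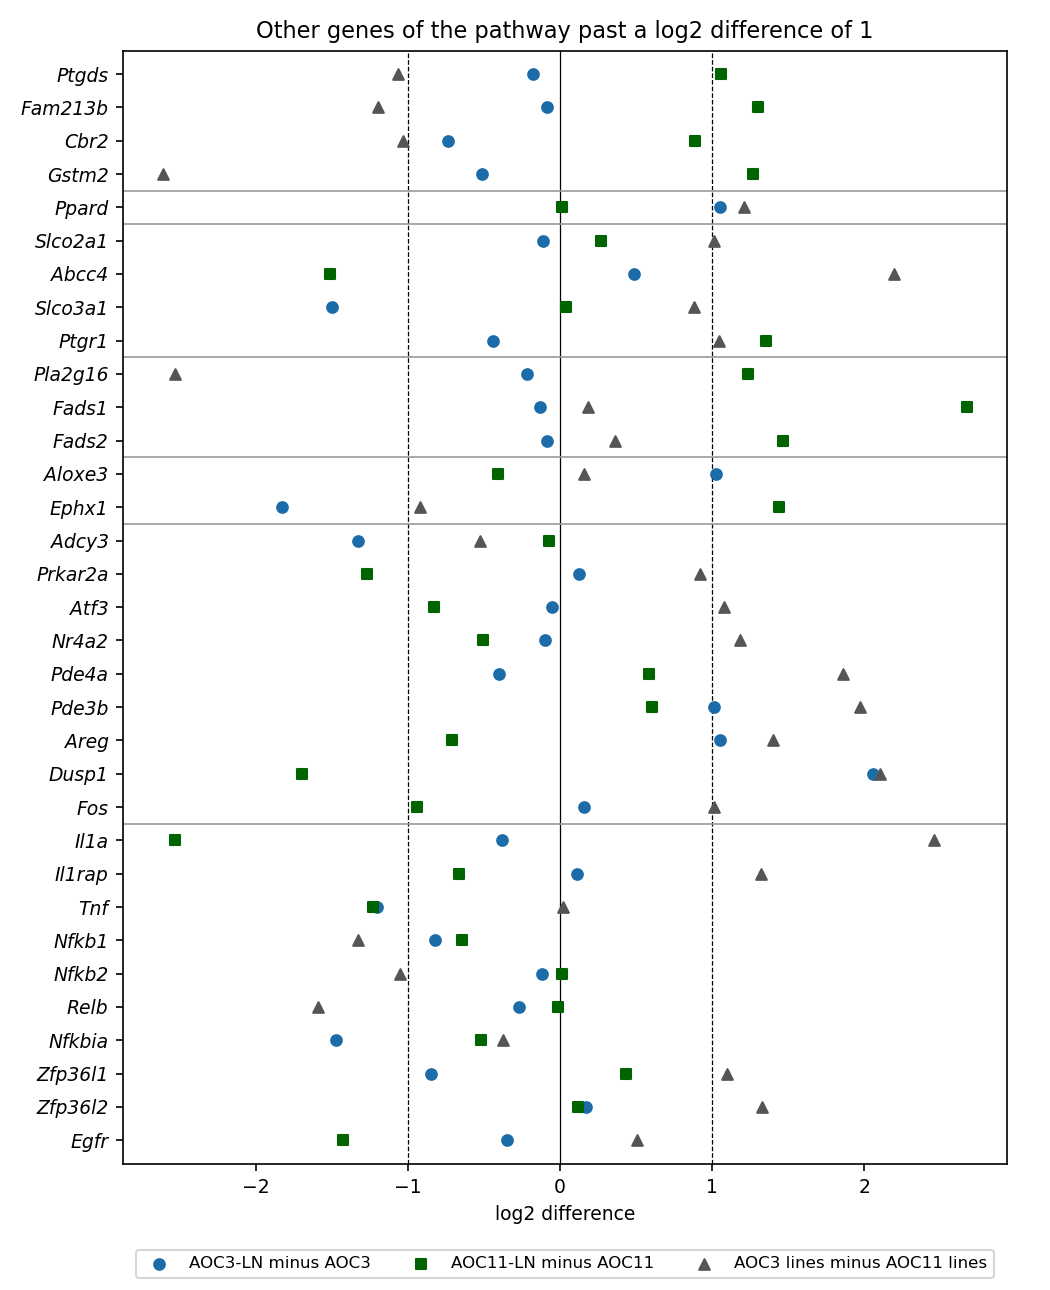
Log2 difference of AOC3-LN from AOC3 (circles), of AOC11-LN from AOC11 (squares) and of the mean of the AOC3 lines from the mean of the AOC11 lines (triangles) for the genes of the other pathway lists that were past -1 or 1, marked by dashed lines, in at least 1 comparison. Horizontal lines part the lists, and Dusp1 (2.06 and -1.69) and Ephx1 (-1.83 and 1.44) are the genes past the threshold in opposite directions in the 2 mice.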

How the data were processed

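RNA of cultured cells of 4 lines was sequenced as paired ends with 1 library per line. The authors trimmed reads with Trim Galore, mapped them to mm10 with TopHat2, estimated FPKM with Cufflinks on GENCODE M21, and deposited FPKM values without the log2 and quantile normalization that the methods name. Tool versions and the use of strand were not given in the sources used here. Here, FPKM values plus 1 were put on the log2 scale and then quantile-normalized with Python 3.11.15 with numpy 2.4.6 and pandas 2.3.3, and entries at 1 FPKM or more in at least 1 line were kept. All columns matched a line. The calculation was tested on simulated data. Fragments per library were estimated from the spacing of low values of 9528 genes with 1 transcript longer than 800 bases, of which 64.9% to 68.3% fell within 0.1 of a whole number, so fragment numbers are approximate.

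The 10 genes and the lists were chosen with earlier results of these data known. Named genes were the 10, list genes past the threshold in any of 3 comparisons, the most highly expressed gene of each list, and the 5 protein-coding profiles nearest to Ptgs2, not all of which are reported here. Promoter sequences were taken from RefSeq (GRCm38.p6). Alternatives were a pseudocount of 0.1, no quantile normalization, median scaling, no filter, a filter at 5 FPKM, a threshold at 1.5-fold and each site alone. Counting protein-coding entries alone was added after the data were seen.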

Additional observations from a re-analysis of the deposited data

Results flagged for a closer look

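Each of these genes was past the threshold in opposite directions in the 2 mice, and the difference between the mice was not tested, since each line has 1 library. Ptgs2 differed by 3.23 on the log2 scale in AOC3-LN against AOC3 and by -3.22 in AOC11-LN against AOC11. Ptges differed by -1.68 and 2.39 in the same order. Of the other pathway genes, Ephx1 differed by -1.83 and 1.44, and Dusp1 by 2.06 and -1.69.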

How the results depend on the processing

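With 1 library per line, no value has a replicate check. No paired analysis was possible because the result comes from no test. Within each mouse the 7 counted members stayed on their side of the threshold under a pseudocount of 0.1, no quantile normalization and median scaling. They kept their sign except Ptgs1 in mouse 11 (-0.05), which was 0.08 without quantile normalization and 0.07 under median scaling. The filters do not alter a gene's value. Between the mice the outcome depended on which pair of lines was compared. The primary lines alone put 5 members past the threshold and the lymph node lines alone 1, against 3 for the means. Over all 14165 kept entries, the primary lines alone put 1692 past it and the means 1573. The number for the lymph node lines alone is not given here. The members were chosen with these values known, so nothing can be read from their counts. The difference turned to -3.15 for Ptgs2 in the primary lines (0.08 for the means), and to -0.82 for Ptges and -1.22 for Fads1 in the lymph node lines (1.21 and 0.18 for the means). Of the other named genes, 11 lost their call between the mice in the primary lines alone and 3 in the lymph node lines alone. Aloxe3 and Pde3b in mouse 3 and Fos between the mice fell short of the threshold without quantile normalization (0.92, 0.89 and 0.91) and under median scaling (0.97, 0.98 and 0.97), as did Slco2a1 and Ptgr1 between the mice without quantile normalization (0.95 and 0.96), and the cause was not tested. The number of entries past the threshold in mouse 3, mouse 11 and between the mice was 783, 1149 and 1573, against 1443, 2074 and 2627 with a pseudocount of 0.1 and 1948, 3482 and 3814 at 1.5-fold. Among protein-coding entries alone it was 473, 689 and 1134 of 11380. In mouse 11 the higher entries were 61.3% of those past the threshold, 71.2% without quantile normalization and 70.4% under median scaling.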
